A study of Mus musculus with 19 samples.

Results

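The livers of 6 mice labelled Homo at Pkd1 were compared with those of 6 mice labelled Het, 12 of the 19 mice in the series. The members were taken from the genotype label alone, and no measured value was used to choose them. Pkd1 encodes polycystin-1, so the comparison asks what differed across all expressed genes between livers labelled with both alleles mutated and livers labelled with 1. All mice, the 7 WT mice included, had received AAV-Cre, an adeno-associated virus that delivers the Cre recombinase, and all had been on a fat-rich Western diet with the liver toxin CCl4 for 3 months, a regimen used as a model of steatohepatitis. Per the design text they were littermates. The promoter that drives Cre, the deleted part of Pkd1, and the sex, age, strain and litter of each mouse were not given in the sources used here. There was 1 library for each mouse, and the mice are named here by the number in their sample titles, which were 8, 10, 15, 16, 17 and 18 for Homo and 4, 6, 7, 14, 19 and 20 for Het.

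Polycystin-1 is a large membrane protein that acts with polycystin-2 at the primary cilium and other membranes of epithelial cells. Mutations in PKD1 cause autosomal dominant polycystic kidney disease, in which the liver also forms cysts lined by bile duct epithelium. Bile duct cells, or cholangiocytes, make up a small share of the liver, secrete fluid and bicarbonate into bile, rest on a basement membrane, and are recognised by keratins 7 and 19 and by surface proteins such as Epcam. Hepatocytes, the bulk of the tissue, carry little of either keratin.

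Library totals were 32.0 to 42.1 M counts (mega) in Homo and 25.8 to 39.2 M in Het, and they overlapped. Levels are given as CPM, counts scaled to a library of equal size, and the 3 numbers given for a genotype are its lowest, median and highest mouse. Alb, the serum albumin gene of hepatocytes, lay between 8422 and 13652 CPM in the Homo livers and between 8435 and 11436 CPM in the Het livers. Transcripts of pancreatic digestive enzymes were found in 3 of the 12 libraries. Their list summed to 195.5 CPM in Homo mouse 8, 312 CPM in Homo mouse 17 and 151.5 CPM in Het mouse 19, and to between 1.32 and 1.80 CPM in the other 9. The called genes were therefore also compared without these 3 libraries. Mouse number also differs between the genotypes, since 4 of the 6 Homo mice carry numbers 15 to 18.

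Counts of Pkd1 itself differed little. Its level was 334, 354 and 380 CPM in Homo and 340, 386 and 445 CPM in Het, and the ranges overlapped. The log2 fold change, Homo against Het, was -0.13 ± 0.08 (SE), with an adjusted p of 0.879 by edgeR's quasi-likelihood test with Benjamini-Hochberg adjustment. These counts are summed over the whole gene, so they do not show which part of the transcript is present in a mouse. Pkd2, which encodes polycystin-2, had a log2 fold change of 0.36 ± 0.26 (adjusted p = 0.924).

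Of 16463 genes tested, 30 passed an adjusted p of 0.05, which is 0.182% of the tested genes. Of these, 24 were higher in Homo (0.146%) and 6 were lower (0.0364%). The 24 include the bile duct keratins Krt19 and Krt7, epithelial surface genes and genes of the actin cytoskeleton, while 5 of the 6 lower genes lie on chromosome 17, where Pkd1 lies. The median log2 fold change over all tested genes was -0.001, and 49.7% were above 0. At an unadjusted p of 0.05, 649 genes were higher (3.94%) and 387 lower (2.35%). Every Homo mouse lay above every Het mouse for 84 genes (0.51%) and below for 29 (0.176%), and among the 30 called genes this held for 19 and 5. DESeq2 called 102 genes (0.62%), 85 higher and 17 lower, including all 30. When each of the 19 libraries was left out in turn, Krt19, Krt7, Cdh6, Misp, Bcam, S100a6, 1600002H07Rik, Atp6v0c and Gtf2h4 passed in every fit. The other called genes each missed the threshold in 1 or more of these fits, with adjusted p-values of at most 0.137 and no change of sign. Tspan8 missed it once, at 0.056 without Het mouse 7, while Epcam and Ezr missed it in 12 fits each, Emp3 in 15, Nsun6 in 16 and Crip1 in 17. The number of called genes was 9 without Het mouse 7, and 11 to 17 without Het mice 4 or 6 or Homo mice 8, 10 or 15. Liver tissue was measured in bulk, so more cells of a type and more RNA per cell cannot be told apart in any of these results.

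The promoters of Krt7 and Epcam, which have a RefSeq entry, are shown first, because both are bile duct genes that were called and Klf5, a zinc-finger factor that binds GC-rich boxes, was itself called higher. The 250 bases before each annotated start are given 5′ to 3′ on the gene's strand (RefSeq, GRCm38.p6). Capitals mark the letters GGGNGNGG on either strand, a loose form of the GC box bound by the KLF and SP families, and overlapping matches are joined.
Krt7 (chr15:101412153-101412402, + strand): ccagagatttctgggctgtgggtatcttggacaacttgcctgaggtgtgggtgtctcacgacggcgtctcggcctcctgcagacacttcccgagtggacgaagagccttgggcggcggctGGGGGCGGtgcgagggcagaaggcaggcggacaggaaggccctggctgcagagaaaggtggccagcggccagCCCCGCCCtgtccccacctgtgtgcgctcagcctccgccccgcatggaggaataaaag
Epcam (chr17:87635729-87635978, + strand): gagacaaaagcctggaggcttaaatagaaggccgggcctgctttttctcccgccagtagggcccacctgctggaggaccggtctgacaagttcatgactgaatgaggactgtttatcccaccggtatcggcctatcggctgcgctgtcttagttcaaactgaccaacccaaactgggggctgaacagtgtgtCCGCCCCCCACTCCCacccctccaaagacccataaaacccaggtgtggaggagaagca
Each window holds 2 matches. Over windows of 250 bases before to 50 bases after the start, the GC box letters were found in 17 of the 18 called higher genes with an entry (94.4%), against 68.3% of tested genes and 51.9% of all genes in the table. The TEAD letters GGAATG were found in 3 of these 18 genes (16.7%), against 15.3% of tested genes, and the AP-1 letters TGANTCA in 3, against 6.98%. The SOX letters ACAAAG were found in 4 of the 18 (22.2%), against 17.6% of tested genes. The GRHL letters AACCNGTT and the HNF1 letters GTTAAT were in none of them, against 2.36% and 6.23% of tested genes. Among the called lower genes with an entry, the GC box letters were found in 3 of 5 (60%). Matches describe the letters in these windows only, and binding of Klf5 was not tested. Krt19 and Klf5 are among the 6 called higher genes with no entry.

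Keratins 19 and 7, the intermediate filament proteins of bile duct epithelium, rose in the Homo livers. Krt19 stood at 3.36, 6.63 and 10.1 CPM in Homo and 0.364, 0.896 and 1.17 CPM in Het. Every Homo liver was above every Het liver, with mice 10 and 15 highest and mice 17 and 18 lowest among the Homo. The log2 fold change was 3.00 ± 0.43, or 7.98-fold (adjusted p = 0.00496). Krt7 stood at 1.03, 2.25 and 4.19 CPM in Homo and 0.21, 0.351 and 0.504 CPM in Het, again without overlap and again highest in mouse 10. Its log2 fold change was 2.74 ± 0.42, or 6.66-fold (adjusted p = 0.00575). The WT livers averaged 1.19 CPM for Krt19, just above the highest Het liver, and 0.271 CPM for Krt7, within the Het range. WT mouse 13 had 100 reads of Krt19, against 10 to 51 in the other WT livers and 125 to 358 in the Homo livers. Krt8 and Krt18, the keratins that hepatocytes share, had log2 fold changes of 0.13 and 0.24 and did not pass (adjusted p = 0.97 and 0.82).

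Several called genes encode surface proteins of epithelium, though the list of epithelial adhesion and tight junction genes was mixed. Of its 15 tested members 10 were above 0, with a median of 0.16, and Cdh6 was the called member. Its summed level overlapped, at 518 to 577 CPM in Homo and 498 to 543 CPM in Het, and Ocln, the tight junction protein occludin, had a log2 fold change of -0.41 ± 0.14 (adjusted p = 0.498). Epcam, a homophilic adhesion protein of bile duct and progenitor cells, stood at 0.985, 1.16 and 1.79 CPM in Homo and 0.331, 0.446 and 0.701 CPM in Het. The groups did not overlap, and the log2 fold change was 1.38 ± 0.28 (adjusted p = 0.0437). Tspan8, a tetraspanin of secretory epithelia, stood at 1.24, 4.85 and 9.01 CPM in Homo and 0.464, 0.54 and 2.28 CPM in Het. Here 5 of the 6 Homo livers lay above the highest Het liver, mouse 20, and Homo mouse 17 lay below it. Its log2 fold change was 2.55 ± 0.43 (adjusted p = 0.0133).

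Cdh6, a cadherin of embryonic kidney and other epithelia, stood at 3.06, 7.39 and 12.1 CPM in Homo and 0.861, 1.36 and 2.69 CPM in Het, with no overlap (log2 fold change 2.35 ± 0.36, adjusted p = 0.00575). Cd24a, a small glycosylated surface protein that marks ductal and progenitor cells, stood at 1.83, 3.68 and 6.76 CPM in Homo and 0.871, 1.08 and 1.57 CPM in Het (1.76 ± 0.31, adjusted p = 0.0183). Bcam, a laminin receptor of the immunoglobulin family, stood at 2.74, 3.94 and 6.35 CPM in Homo and 1.46, 1.78 and 1.82 CPM in Het (1.26 ± 0.18, adjusted p = 0.00496). For all 3 genes every Homo liver was above every Het liver. Ddr1, a receptor tyrosine kinase for collagen, rose by a smaller amount (0.68 ± 0.12, adjusted p = 0.0258).

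Klf5, the zinc-finger factor named above, is active in many dividing epithelia. It stood at 1.45, 2.23 and 5.04 CPM in Homo and 0.331, 0.416 and 1.1 CPM in Het, with no overlap. Mice 10 and 15 were again the high Homo livers, and Het mouse 4 stood above the other Het livers. The log2 fold change was 2.43 ± 0.42 (adjusted p = 0.0182). Kcne3, a potassium channel subunit that sustains chloride secretion in epithelia, stood at 2.34, 8.55 and 11.1 CPM in Homo and 0.329, 0.885 and 2.78 CPM in Het. Homo mice 17 and 18 were close to the highest Het liver, mouse 6, and the log2 fold change was 2.59 ± 0.48 (adjusted p = 0.0269).

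**Figure D1:**
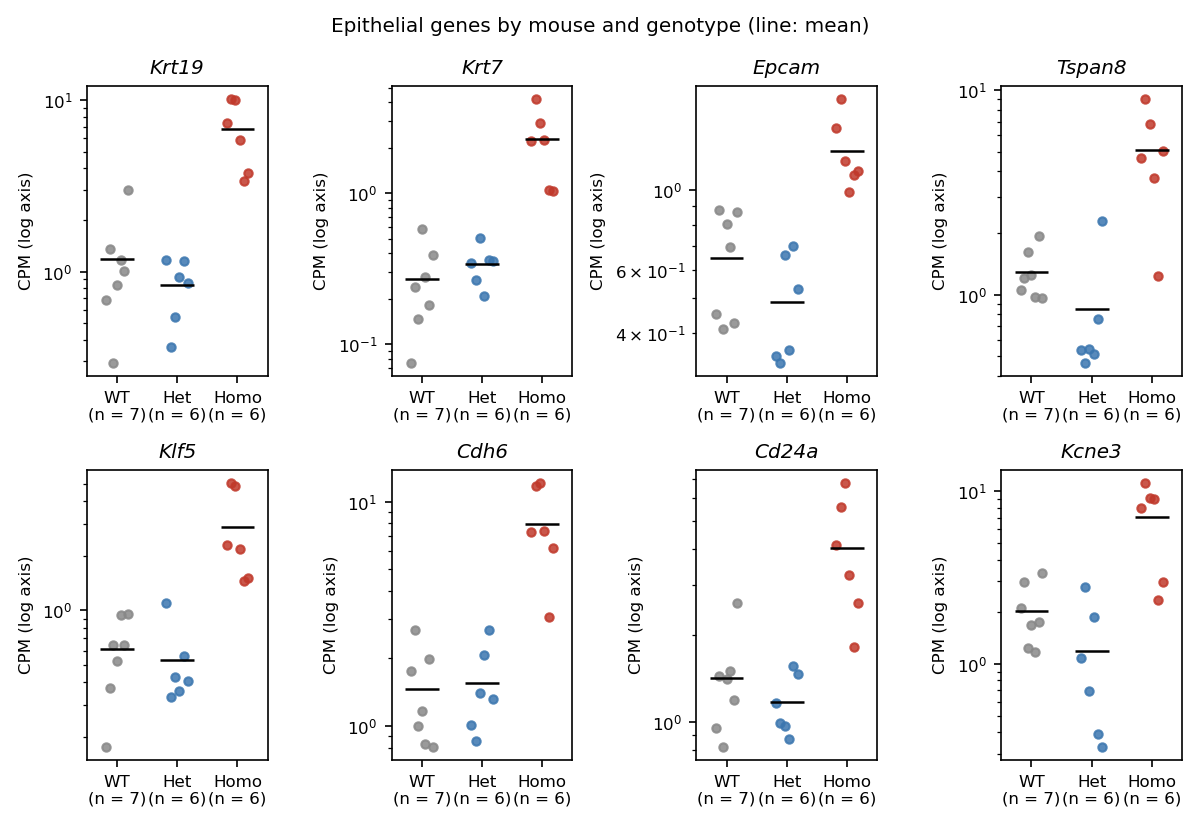
CPM of 8 called epithelial genes (vertical log axis) in each mouse of the 3 genotypes, 7 WT, 6 Het and 6 Homo, with a line at the mean. For Krt19, Krt7, Epcam, Klf5, Cdh6 and Cd24a all 6 Homo livers lie above all 6 Het livers, and for Tspan8 and Kcne3 at least 1 Homo liver lies below the highest Het liver.

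A further 6 called genes are described together here, grouped after the calls were seen and not a list that was tested. Ezr (ezrin), which links actin to the membrane of microvilli, had a log2 fold change of 0.89 ± 0.17 (adjusted p = 0.0384). Misp, an actin-binding protein of the spindle and of microvilli, stood at 2.11 to 3.5 CPM in Homo and 0.232 to 1.09 CPM in Het (2.13 ± 0.34, adjusted p = 0.00955). Myo15b, a myosin-like gene, stood at 1.32 to 3 CPM in Homo and 0.15 to 0.963 CPM in Het (2.09 ± 0.39, adjusted p = 0.0258). Arhgef28, an exchange factor for RhoA, rose by 1.48 ± 0.28 (adjusted p = 0.0269). S100a6, a calcium-binding protein, stood at 1.26 to 2.83 CPM in Homo and 0.349 to 0.869 CPM in Het (1.61 ± 0.25, adjusted p = 0.00745). Ahnak, a very large scaffold protein under the membrane, stood at 199 to 315 CPM in Homo and 135 to 210 CPM in Het, and Homo mouse 18 lay below the highest Het liver (0.67 ± 0.12, adjusted p = 0.0258).

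The other called genes had various roles. The semaphorins Sema3c and Sema5a, guidance molecules, had log2 fold changes of 1.44 ± 0.28 and 1.13 ± 0.21 (adjusted p = 0.0379 and 0.0258). Pamr1, a secreted protein of the peptidase family, Crip1, a small LIM-domain protein, and Emp3, a tetraspan membrane protein, had log2 fold changes of 1.05, 1.03 and 0.68. Nsun6, an RNA methyltransferase, was 19.7 CPM on average in Homo and 14.3 CPM in Het (0.46 ± 0.09, adjusted p = 0.0444), but its WT mean was 18.6 CPM, so that here Het stood apart from both. Atp10b, a lipid-moving P-type ATPase, was nearly absent in Het. It had 4 to 74 reads in each Homo library, 203 in all, and 3 reads over the 6 Het libraries, a ratio of 62.0 per unit of depth (95% interval 20.9 to 303, counting error only). It was nearly absent in WT too, with 12 reads in WT mouse 13, 4 in WT mouse 9 and none in the others. Homo mouse 17, with 4 reads, lay below WT mouse 13.

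The full list of bile duct genes pointed the same way. All 20 tested members had a log2 fold change above 0, with a median of 1.18 against -0.001 over all tested genes. The median of the list was 1.39 in mice 4 to 10 and 0.64 in mice 14 to 20. Set against the WT livers, it was -0.28 in Het and 0.80 in Homo. Called were 4 (Krt19, Krt7, Tspan8 and Epcam), and 11 had an unadjusted p under 0.05, all higher. Summed over the list, the Homo livers held 500.3 to 632 CPM and the Het livers 366 to 449 CPM, without overlap, and the WT livers 355 to 493 CPM. Just short of the threshold was Muc1, a membrane mucin of ducts, at 2.42 to 7.79 CPM in Homo and 0.596 to 1.47 CPM in Het (1.83 ± 0.39, adjusted p = 0.0606). Elf3 and Ehf, epithelial ETS factors, had log2 fold changes of 2.26 and 1.24 (adjusted p = 0.341 and 0.259). Sox9, a factor of biliary identity, had a log2 fold change of 0.24 (adjusted p = 0.967), and it overlapped widely between the groups. The list was drawn up with earlier results of these mice known, so its direction is a description.

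Among 17 tested biliary and progenitor transcription factors, 16 were above 0, with a median of 0.45, and Klf5 was the called member. The summed level of this list overlapped, at 363 to 456 CPM in Homo and 332 to 388 CPM in Het. Among 16 genes of biliary ion and water transport, 10 were above 0 with a median of 0.12, and Kcne3 was the called member. The other 6 lay between -0.20 and -0.02. An unadjusted p under 0.05 was found for 4 higher members and 1 lower member. The summed level of this transport list overlapped between the genotypes as well, so the list as a whole did not separate them. Ano1, a calcium-activated chloride channel, stood at 39.6 to 102 CPM in Homo and 14.2 to 34.4 CPM in Het, without overlap (1.28 ± 0.27, adjusted p = 0.0636). Gabrp, a subunit of GABA-A receptors, stood at 1.72 to 9.15 CPM in Homo and 0.0601 to 1.07 CPM in Het (3.75 ± 0.79, adjusted p = 0.0606). Without the libraries that held pancreatic transcripts, Ano1 and Gabrp had log2 fold changes of 1.49 and 4.78.

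Basement membrane genes formed a further group of small differences. Their summed level overlapped, at 355 to 443 CPM in Homo, 334 to 375 CPM in Het and 311 to 444 CPM in WT. Of 18 tested members, 17 were above 0 with a median of 0.28, none was called by edgeR, and 8 had an unadjusted p under 0.05, all higher. DESeq2 called 2. Lama5, the laminin chain of epithelial basement membranes, stood at 15.5 to 30.1 CPM in Homo and 8.05 to 15.1 CPM in Het, without overlap (0.90 ± 0.19, adjusted p = 0.0627). Itgb4, the integrin subunit of hemidesmosomes, had a log2 fold change of 0.87 ± 0.20 (adjusted p = 0.0906).

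The Homo mice were not alike. Of the 24 called higher genes, 15 were highest in Homo mouse 10, 4 in mouse 15, 3 in mouse 8 and 2 in mouse 16. The lowest Homo value belonged to mouse 17 for 11 genes and to mouse 18 for 9. Mouse 17 is also the library with most pancreatic transcript, and mouse 18 holds almost none. Without the 3 libraries with pancreatic transcripts, all 30 called genes had the same sign, and the median ratio of their log2 fold change to the value from all mice was 1.07. With these fewer libraries 14 genes were called, 13 of them among the 30. These were Krt19, Krt7, Tspan8, Klf5, Cdh6, Cd24a, Bcam, Misp, S100a6, Sema5a, 1600002H07Rik, Atp6v0c and Gtf2h4. The rest of the 30 had adjusted p-values from 0.0703 for Kcne3 and Myo15b to 0.284 for Crip1, with 0.148 for Epcam.

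**Figure D2:**
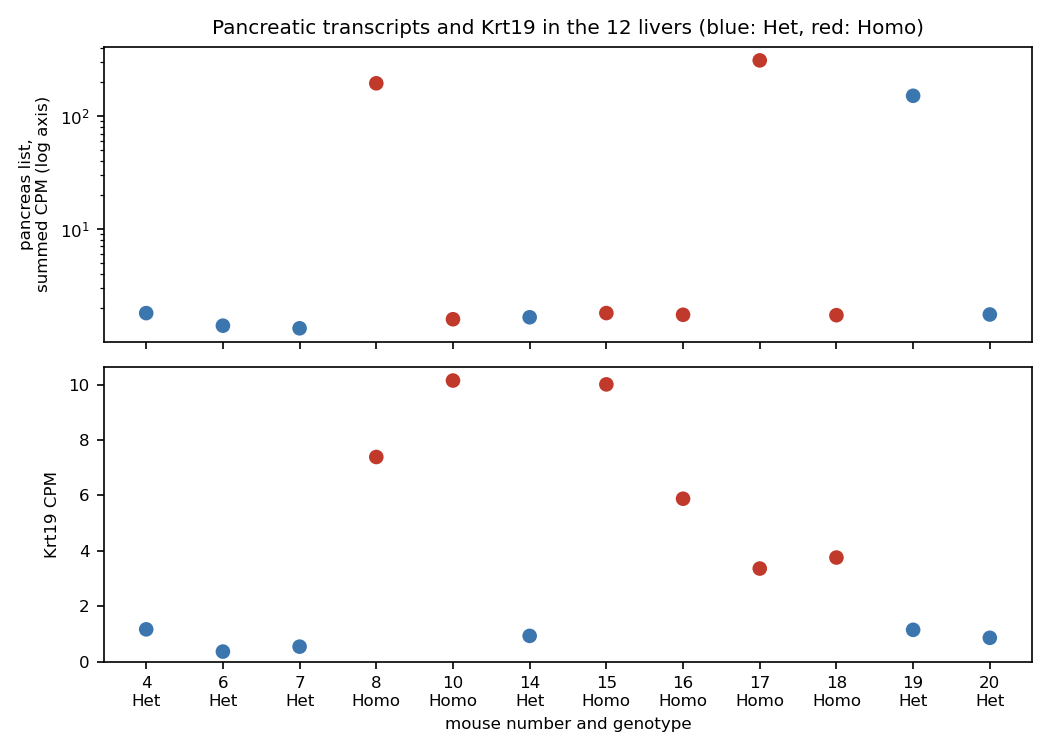
Summed CPM of the pancreas list (top, log axis) and CPM of Krt19 (bottom) for the 12 mice in the order of mouse number, Het in blue and Homo in red. The pancreas list exceeds 150 CPM in mice 8, 17 and 19, while Krt19 is above 3.3 CPM in all Homo livers and below 1.2 CPM in all Het livers.

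The called genes were also compared within each range of mouse numbers, mice 4 to 10 (2 Homo, 3 Het) and mice 14 to 20 (4 Homo, 3 Het). All 30 had the same sign in both, which is a description, since the genes were called from these same mice. For Krt19 the log2 fold change was 3.64 in the lower range and 2.54 in the higher, and for Tspan8 3.72 and 1.81. For Klf5 and Kcne3 the ranges gave 2.54 and 2.48, and 2.65 and 2.78. Of the 30, 27 differed more in mice 4 to 10, with a median ratio to the value from all mice of 1.31, against 0.812 in mice 14 to 20. A test of the difference between the ranges called no gene by edgeR, with 1177 genes at an unadjusted p under 0.05 (7.15%). Among the 30, Ahnak, Ezr and Sema5a had an unadjusted p under 0.05 (0.0113, 0.0227 and 0.0276), and the lowest adjusted p was 0.656. Fitted alone, neither range called a gene by edgeR, with 1287 genes at an unadjusted p under 0.05 in mice 4 to 10 and 897 in mice 14 to 20. A fit with the number as a linear covariate called 40 genes, 28 of them among the 30. The 12 Homo and Het libraries fitted alone called 20 genes, and with the number range added as a block they called 12. Of the 30, Krt19, Krt7, Klf5, Cdh6, Bcam, Misp, Abca3, 1600002H07Rik and Gtf2h4 passed with the block. Atp10b was not tested there, and the rest had adjusted p-values from 0.0551 for Atp6v0c, Tmem8 and Arhgef28 to 0.153 for Map3k11, with 0.0932 for Tspan8 and Epcam.

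**Figure D3:**
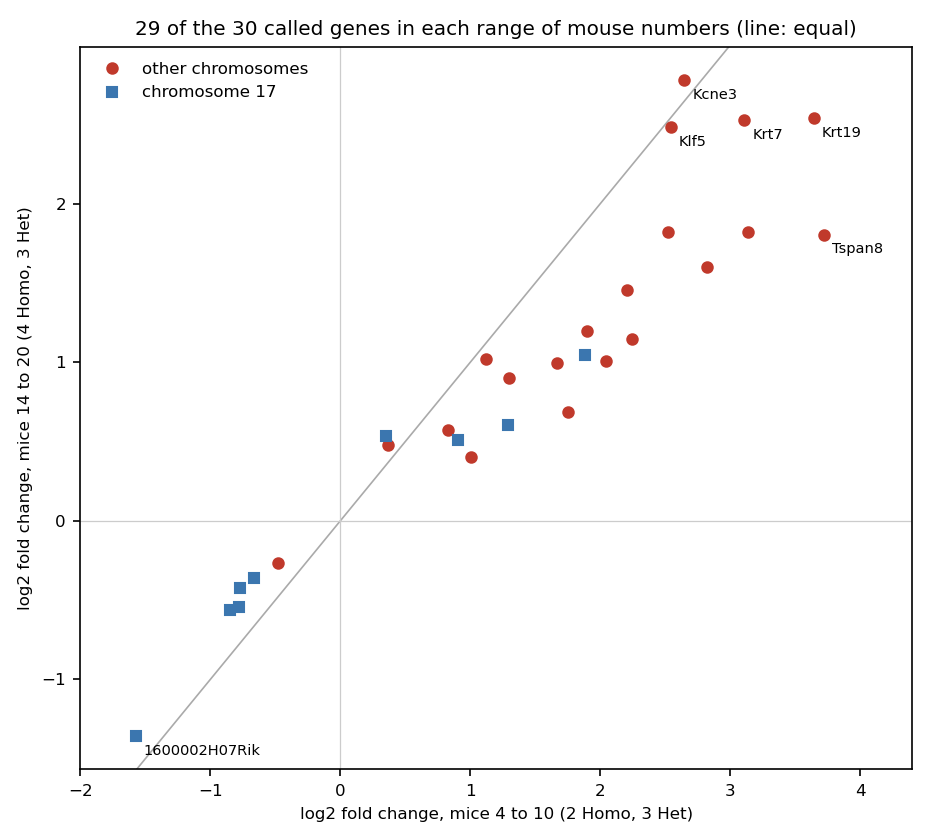
Log2 fold change, Homo against Het, of 29 called genes in mice 4 to 10 (horizontal) and in mice 14 to 20 (vertical), with squares for genes of chromosome 17 and a line of equal values. Atp10b is left out because the 3 Het mice of the lower range had no read. All 29 lie in the quadrants of equal sign, most of the higher genes below the line.

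Chromosome 17 held 9 of the 30 called genes, of 788 tested genes on it. Of these, 4 lie within 1 Mb of the start of Pkd1, where 74 other genes were tested. The lower gene with the smallest p was 1600002H07Rik (RefSeq Tedc2, chr17:24215054-24220934, GRCm38), a tubulin complex gene 0.334 Mb from Pkd1. It stood at 19.2, 20.9 and 32.4 CPM in Homo and 47.4, 62.2 and 74.5 CPM in Het, and every Homo liver was below every Het liver. The log2 fold change was -1.42 ± 0.13 (adjusted p = 1.26e-05), and the WT livers averaged 110 CPM, so the level stepped down from WT to Het to Homo. Abca3 (chr17:24351921-24410204), a lipid transporter of the ABC family, ran the other way, with means of 82.7 CPM in WT, 197 CPM in Het and 269 CPM in Homo. It rose from Het to Homo by 0.45 ± 0.08 (adjusted p = 0.0258), every Homo liver lying above every Het liver. The antisense-named gene D330041H03Rik, which overlaps Abca3 and was chosen after its values were seen, stood at 4.79, 10.5 and 13.0 CPM in WT, Het and Homo (0.31 ± 0.13 from Het to Homo, adjusted p = 0.75). The counting strand is not stated, so reads of these overlapping genes cannot be told apart.

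Atp6v0c (chr17:24163865-24169678), the proton channel subunit of the vacuolar ATPase, fell from 5.52 to 8.2 CPM in Het to 4.24 to 5.05 CPM in Homo (-0.67 ± 0.10, adjusted p = 0.00496), against a WT mean of 10.2 CPM. The groups did not overlap, and Het mouse 19 was nearest to the Homo livers. Atp6v0c-ps2, named as a pseudogene of it and chosen after its values were seen, had 0 to 6 reads in each WT library, 32 to 53 in each Het and 49 to 90 in each Homo (log2 fold change 0.60 ± 0.31, Homo against Het, adjusted p = 0.837). How the counting treated reads that match both was not given in the sources used here, and its part in these values was not tested. Rnps1 (chr17:24414646-24425898), an RNA-binding splicing factor, fell by 0.48 ± 0.09 on the log2 scale (adjusted p = 0.0384). Of the 74 neighbours, 26 were above 0 and the median was -0.07.

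Further out, Tmem8 (RefSeq Pgap6, 1.56 Mb from Pkd1) fell by 0.54 ± 0.10 on the log2 scale (adjusted p = 0.0269). Gtf2h4, a subunit of the transcription and repair factor TFIIH 11.1 Mb away, stood at 6.51 to 9.24 CPM in Homo and 10.8 to 13.8 CPM in Het (-0.65 ± 0.10, adjusted p = 0.00496). Its WT mean of 12.4 CPM was close to the Het mean of 12.2 CPM, so Gtf2h4 did not step from WT to Het. Ddr1, next to it, and Ezr and Epcam, at 17.8 and 63.1 Mb, were the called higher genes of the chromosome outside the 1 Mb window. Chosen after their values were seen, Ccnf and Gfer, neighbours of Pkd1, had log2 fold changes of -1.01 and -0.43 (adjusted p = 0.0644 and 0.0689), and Hmga1, farther along the chromosome, -0.74 (adjusted p = 0.0521). The remaining lower gene, Map3k11, a kinase of the JNK pathway on chromosome 19, stood at 27 to 33.9 CPM in Homo and 33.4 to 44.6 CPM in Het (-0.36 ± 0.07, adjusted p = 0.043).

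**Figure D4:**
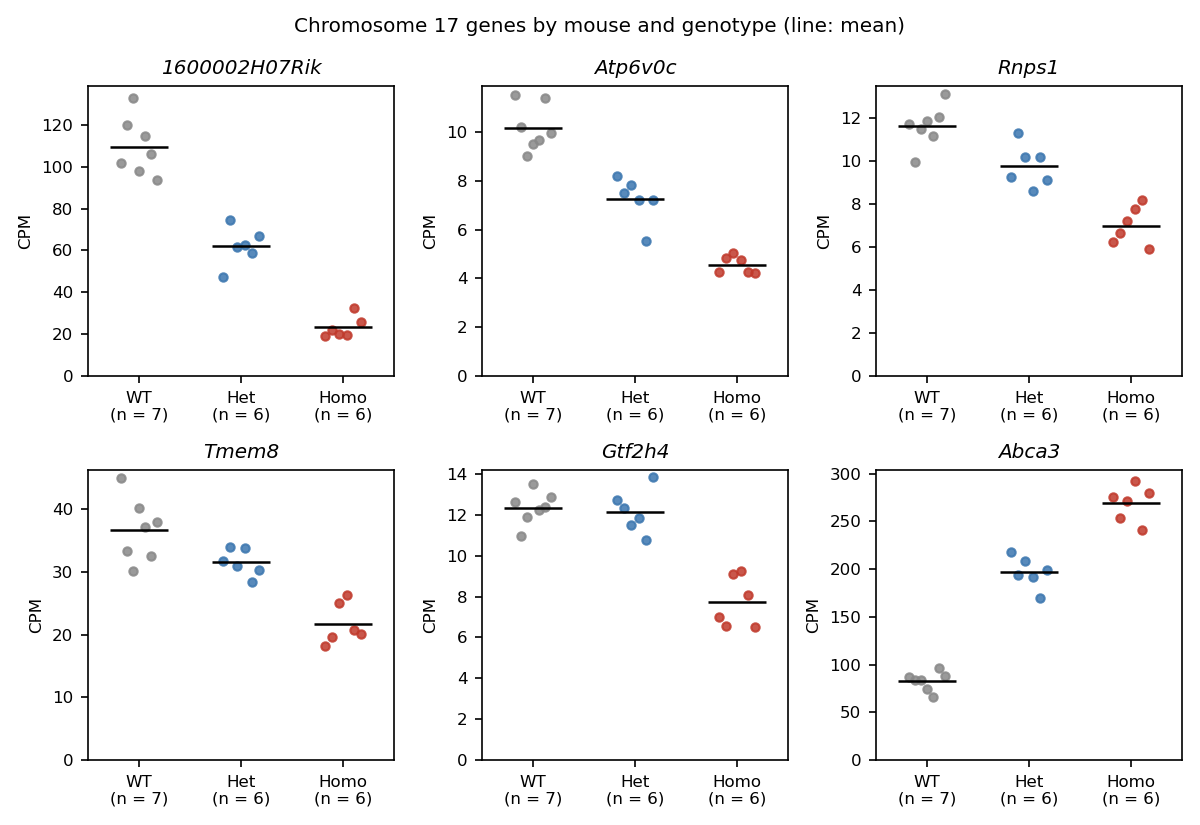
CPM (vertical axis from 0) of 6 called chromosome 17 genes in each WT, Het and Homo mouse, with a line at the mean. For 1600002H07Rik, Atp6v0c and Rnps1 the mean is highest in WT and lowest in Homo, for Abca3 it is lowest in WT and highest in Homo, and for Gtf2h4 only the Homo mean is low.

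Genes of mitosis leaned toward the Homo livers without any call by edgeR. Of 22 G2 and M phase genes 17 were tested, and 16 of these were above 0 with a median of 0.61. An unadjusted p under 0.05 was found for 8, all higher. DESeq2 called 2. Summed over the list, the Homo livers held 37.5 to 51.3 CPM and the Het livers 22.8 to 33.4 CPM, without overlap. Top2a, the topoisomerase of dividing cells, stood at 3.55 to 5 CPM in Homo and 1.35 to 3.03 CPM in Het (0.81 ± 0.17, adjusted p = 0.0644). Tpx2, a spindle assembly factor, stood at 1.65 to 4.29 CPM and 0 to 0.961 CPM (2.50 ± 0.58, adjusted p = 0.106). Mki67, the proliferation marker, had a log2 fold change of 0.68 ± 0.19 (adjusted p = 0.264), and Het mouse 20 stood above Homo mice 15 and 18. Smaller differences were found for Ccna2, Cdk1, Birc5 and Aurka, with log2 fold changes of 0.20, 0.25, 0.13 and -0.02. The median of the list was 0.91 in mice 4 to 10 and 0.32 in mice 14 to 20. Set against the WT livers, it was -0.27 in Het and 0.39 in Homo. Of 23 tested G1 and S phase genes, 14 were above 0 with a median of 0.03, and Ccnd1, cyclin D1, had a log2 fold change of 0.73 ± 0.24 (adjusted p = 0.455).

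The lists of fibrosis and of interferon response also lay mostly above 0. For fibrosis and stellate cell activation, 26 of 30 members were above 0 with a median of 0.22 and 8 had an unadjusted p under 0.05, all higher, with no call by edgeR or DESeq2. This list's median was 0.38 in mice 4 to 10 and 0.13 in mice 14 to 20. Its sum overlapped, at 13504 to 16636 CPM in Homo and 13295 to 15403 CPM in Het. Among the 4 members below 0 was Acta2, chosen after its values were seen (-0.26, adjusted p = 0.987). For interferon response, 23 of 24 were above 0 with a median of 0.26, edgeR called none and DESeq2 called 1. The interferon sum overlapped as well, at 773 to 1032 CPM in Homo and 652 to 904 CPM in Het. Without the libraries that held pancreatic transcripts the interferon median was 0.05. Cx3cl1, a chemokine made by epithelium and endothelium, had a log2 fold change of 1.18 (adjusted p = 0.19).

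Genes of hepatocyte function did not separate the genotypes by test. The median was -0.03 over 18 hepatocyte identity genes, -0.13 over 15 periportal genes, 0.03 over 15 pericentral genes and -0.09 over 20 bile acid genes, and neither edgeR nor DESeq2 called any member. Lipid synthesis depended on which mice were compared. For 20 genes of fatty acid and triglyceride synthesis the median was -0.13 over all mice, -0.75 in mice 4 to 10 and 0.35 in mice 14 to 20. For 20 cholesterol synthesis genes it was -0.06, -0.60 and 0.41. Fasn, fatty acid synthase, stood at 169, 245 and 443 CPM in Homo and 137, 286 and 1294 CPM in Het, where mouse 4 stood far above the others (log2 fold change -0.67 ± 0.45, adjusted p = 0.903). Without Het mouse 4 its log2 fold change was 0.13. Of 18 NRF2 targets 6 were above 0, with a median of -0.08, and Gstp1, a glutathione transferase, was called by DESeq2 but not by edgeR (-0.63, adjusted p = 0.2 by edgeR).

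Polycystic disease genes were divided between the directions. Of 16 tested polycystic disease genes 7 were above 0, with a median of -0.02, edgeR called none and DESeq2 called 2. Pkhd1, which encodes fibrocystin, stood at 27 to 53.3 CPM in Homo and 16 to 31 CPM in Het (0.83 ± 0.20, adjusted p = 0.119), and Bicc1, an RNA-binding regulator of tubule growth, at 12.1 to 19.6 CPM and 8.22 to 11.2 CPM (0.66 ± 0.17, adjusted p = 0.195). Both are also on the bile duct list. Of 25 primary cilium genes 21 were above 0 with a median of 0.07, and Bbs1, a subunit of the BBSome, had a log2 fold change of 1.19 (adjusted p = 0.323). The medians were 0.01 over 15 Notch pathway genes and 0.11 over 16 YAP and TAZ targets, where Ctgf had a log2 fold change of 0.75 ± 0.29 (adjusted p = 0.67). No member of these 3 lists was called by edgeR or DESeq2.

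**Figure D5:**
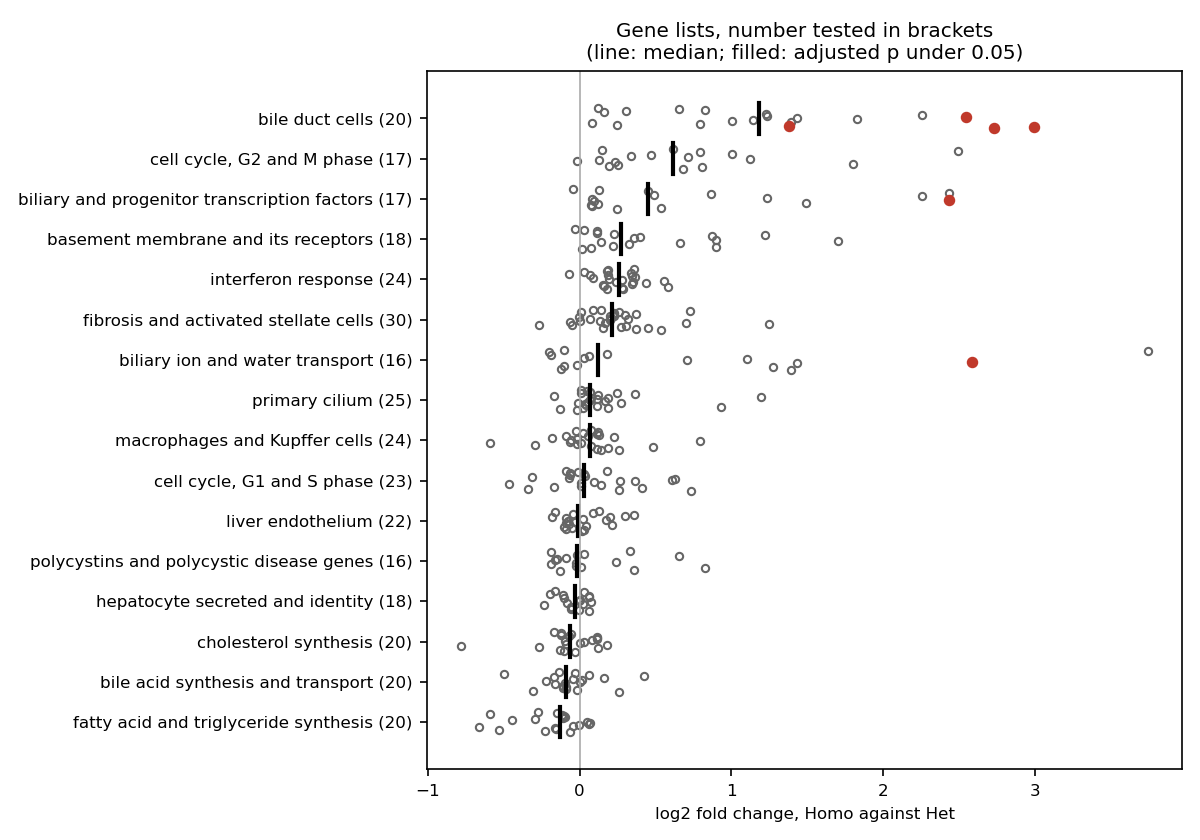
Log2 fold change, Homo against Het (horizontal), of the tested members of 16 gene lists, with the list's median as a line and genes of adjusted p under 0.05 filled. The bile duct list has a median of 1.18 and 4 filled members, and the medians of the hepatocyte identity, bile acid and lipid synthesis lists lie between -0.13 and -0.03.

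Markers of other cells that a liver sample can hold were compared in the same way. For mesothelium, which also carries keratins, 8 of 11 tested members were above 0 with a median of 0.06, and the summed list overlapped, at 111 to 150 CPM in Homo and 111 to 140 CPM in Het. Its marker Msln stood at 2.31 to 6.34 CPM in Homo and 0.233 to 2.97 CPM in Het (1.38 ± 0.52, adjusted p = 0.617). For gallbladder and gut epithelium, 4 of 7 tested members were above 0, the summed list overlapped at 52.6 to 65.2 CPM and 47.7 to 64.9 CPM, and Cdx1 and Cdx2, which define intestine, were at 0 in all 12 livers. Tff2, a peptide of mucous epithelium, stood at 0.359 to 1.83 CPM in Homo and 0 to 0.589 CPM in Het (2.59 ± 0.85, adjusted p = 0.455). The medians were 0.07 for 24 macrophage genes, -0.01 for 22 endothelial genes, where Stab2 had a log2 fold change of -0.09, and 0.39 for 14 T and NK cell genes, and none of these members was called. The part of such cells in the called genes was not tested.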

How the data were processed

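Total RNA of 19 mouse livers, 1 library a mouse, was prepared with a NuGen Ovation kit, per the labels' protocols. The table deposited by the authors holds raw counts, whole numbers by gene symbol with no normalization. The submitters' processing notes name STAR 2.7.2b, featureCounts 1.6.4 and GRCm38. Settings, annotation and strand were not given in the sources used here. Of the 35976 rows, 27 have a date as their name. They are about 0.15% of a library, stayed in the totals, and none is named. No row carries a mitochondrial gene name, so that share was not computed.

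Counts were tested in R 4.3.3 with edgeR 4.0.16 (TMM, filterByExpr, quasi-likelihood F test, two-sided), all 19 libraries in 1 fit with genotype as factor. The WT libraries thus add to the estimate of the spread. Every adjusted p-value in the text comes from this test with Benjamini-Hochberg adjustment over 16463 genes, unless another tool, test, fit or set of libraries is named. Each other edgeR fit was adjusted over the genes tested in it. Genes under 0.05 were called. SE is the log2 fold change over the root of F. Comparisons of Homo or Het with WT share libraries with this one, so WT levels are set beside it as values only. Differences of library measures were tested by an exact two-sided permutation test (924 arrangements, smallest p 0.00216). By that exact test no difference between Homo and Het was detected in total counts (p = 0.301), genes with a count (p = 0.154) or the share of the 50 most abundant genes (p = 0.667), and adjusted over 4 measures the lowest p was 0.316. No pair of libraries agreed within sampling noise. Y-linked genes were expressed in all 12 livers.

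The comparison and the 44 gene lists were chosen with earlier results of these data known. The rule for named genes takes Pkd1, Pkd2, every called gene, the 3 members of smallest p of each list, every member of the bile duct, cell cycle and polycystin lists, and the first 2 members of each marker list. Where a gene outside it is named, the text says so, and some genes under it are not reported here. The alternatives run were DESeq2 1.42.0, limma-voom (limma 3.58.1), DESeq2's size factors, 2 filters, the 12 libraries alone, mouse number as covariate or block, each number range alone, no chromosome 17, other thresholds and leaving out each library. The setting without the 3 libraries with pancreatic transcripts was added after seeing the data. The edgeR fit of Homo against Het ran first on simulated counts with known changes, and the other steps were not run on simulated counts. Positions and promoters come from RefSeq of GRCm38, with 15369 tested genes matched by symbol, 508 by an older symbol and 586 unmatched. Of the 30 called genes, 8 overlap another annotated gene. Whether the livers of a genotype share a litter is not given, and the p-values treat the mice as independent. The fit of all 19 libraries sets each difference against a spread estimated from them, WT included.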

Additional observations from a re-analysis of the deposited data

Results flagged for a closer look

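Among the named genes and library measures, single mice that stood apart from the other 5 of their genotype were looked for with Dixon's test at the 95% level, which flags about 1 in 20 groups by chance. Of 122 groups of gene values tested, the following stood out, as did 2 measures of whole libraries.

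Het mouse 20 had 2.28 CPM of Tspan8, above the other Het livers and above Homo mouse 17. Het mouse 4 had 1.10 CPM of Klf5, the highest Het value. Het mouse 6 had 1.46 CPM of Bcam and 0.596 CPM of Muc1, each the lowest Het value, and 186 CPM of Gstp1, the highest. Het mouse 19 had 5.52 CPM of Atp6v0c, the lowest Het value, and 0.589 CPM of Tff2, the highest. Homo mouse 18 had 3.54 CPM of Emp3, below the other Homo livers. The summed pancreas list reached 151.5 CPM in Het mouse 19, where the other Het livers held at most 1.80 CPM. The 50 most abundant genes took 23.9% of the counts in Homo mouse 10, the lowest share among the Homo livers and the liver with most of the high values of the called genes.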

How the results depend on the processing

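No paired analysis was possible because the labels give the mice of the 2 genotypes no shared replicate numbers. The count of 30 called genes (24 higher, 6 lower) became 102 (85 and 17) with DESeq2, 16 (12 higher) with limma-voom, 0 (0 and 0) in either number range alone, and 14 (14 and 0) without chromosome 17. In that last setting the same p-values were adjusted again without the genes of chromosome 17. Some called genes of other chromosomes, Map3k11 among them, then no longer passed. The count was 14 (10 higher) without the 3 libraries with pancreatic transcripts, and 20 (15 higher) from the 12 libraries alone, which with the number range added as a block gave 12 (8 higher). At an adjusted p of 0.10 it was 51 (41 and 10), and with a log2 fold change of at least 1 it was 19, of which 1 lower. Leaving out each library in turn gave 9 to 34 calls, 6 to 27 higher and 3 to 8 lower, with the fewest, 9, without Het replicate 3 (mouse 7). Without Het replicates 1 and 2 and Homo replicates 1, 2 and 3 it was 13, 12, 17, 12 and 11. Over all these settings the called genes kept their sign in 916 of 916 values, and 334 of these no longer passed. Of the genes named but not called, Fasn turned to 0.63 in mice 14 to 20 and ranged from -0.89 to 0.13 when 1 library was left out, the latter without Het replicate 1 (mouse 4). The cause was not tested. The lower number range holds 2 Homo mice, and Krt7 and Epcam had medians of 0.351 and 0.446 CPM in Het, so smaller differences at such levels may not be detectable at this depth.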
